A study of Mus musculus with 9 samples.

Results

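The comparison set the irradiated LSK cells against the circulating and the endogenous LSK cells of parabiotic mice. It contrasted the 3 irradiated libraries with the mean of the group means of 3 circulating and 3 endogenous libraries, 9 in all. A gene was called where the limma adjusted p was under 0.05, and 10 of the 13771 genes tested were called. LSK cells carry Sca-1 and c-Kit and lack the markers of mature lineages, a fraction of bone marrow that contains the blood stem cells and early progenitors. Parabiotic mice are joined surgically and share a circulation. The study's design text asks how the transcriptome differs in LSK cells that circulated to the marrow of an irradiated partner.

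All 9 libraries were made from bone marrow LSK cells that had been sorted from specific pathogen free mice in parabiosis. The irradiated libraries carried the strain label C57BL/6 and the title code LSK2. The circulating libraries carried the strain label C57BL/6 and the title code LSK1, and the endogenous libraries the strain label B6SJL CD45.1 and the title code LSK1. A second title code (DD1 to DD3) was common to same-numbered circulating and irradiated libraries, and the endogenous libraries had codes of their own (SJ1 to SJ3). The labels do not say what these codes stand for, and the code LSK2 belongs to the irradiated libraries alone. A difference that goes with irradiation therefore cannot be told apart from one that goes with that code. The radiation dose, the time since irradiation, the age of the mice and the partner that each sort came from are not stated. Nor do the labels say whether replicates were separate animals, so the p-values rest on a spread between samples that may be technical.

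Stem and progenitor cells are held in the marrow by adhesion molecules and by the chemokine CXCL12, which signals through the receptor CXCR4. Cells that leave this hold enter the blood and can settle in other marrow. Ionising radiation breaks DNA, activates the transcription factor p53 and its target genes, and empties the marrow of much of its dividing blood-forming cells.

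Library depth ran from 14065855 to 27012345 estimated counts, and the irradiated libraries were among the deepest, at 23224928 to 27012345. The irradiated libraries were also the most alike, with a median SD per gene of 0.213 log2 units, against 0.382 in circulating and 0.262 in endogenous libraries. Circulating replicates 2 and 3 stood apart from all other libraries on the first principal component (33.6% of the variance). Transcripts that define the sort were present in every irradiated library. Ly6a, which encodes Sca-1, was 202, 159 and 163 in irradiated libraries, 127 to 146 in circulating libraries and 169 to 194 in endogenous libraries. Kit was 576, 562 and 622 in irradiated libraries, above the circulating range of 327 to 409.9 and below the endogenous range of 737 to 1011. Ptprc, which encodes CD45, was 510.0, 499 and 449.7, with 450.1 to 651 in circulating and 557 to 607 in endogenous libraries. Cd34, a surface marker of early progenitors, was 1147 to 1324, inside the circulating range of 735 to 1384 and below the endogenous range of 1512 to 1588. Flt3, a receptor of lymphoid-primed progenitors, was 325 to 469, with 342 to 766 in circulating and 642 to 870.0 in endogenous libraries. None of these 5 genes was called in the contrast (limma adjusted p 0.63 to 0.99). All levels are the normalised values that the authors deposited, and all differences are in log2(value + 1), a scale that shrinks differences of genes with low values.

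Of the 10 genes called, which are 0.0726% of the genes tested, 5 were higher and 5 lower in irradiated cells (0.0363% in each direction). At an unadjusted p under 0.05 there were 1045 genes (7.59%). In all 10 called genes the 3 irradiated values lay outside the range of the 6 other libraries, as they did in 401 of all genes tested (2.91%), 231 above (1.68%) and 170 below (1.23%). The contrast that picked the 10 uses the same values and favours such genes, so this is no separate result. The genes that fell encode a protease, a motor protein subunit, a chemokine receptor, an Eph receptor and an enzyme of tryptophan breakdown. The genes that rose encode an adhesion molecule, a kinase of glycated proteins and a centrosomal protein, and the rest were a pair of predicted loci. Without circulating replicates 2 and 3, the libraries that stood apart, 84 genes were called, 53 higher and 31 lower, and the 10 were among them. The count was 4 without irradiated replicate 1 or 3, 6 without irradiated replicate 2 or endogenous replicate 1 or 2, 16 without circulating replicate 1 and 18 without circulating replicate 3.

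The largest fall among the called genes on the log2(value + 1) scale was in Ctse (chr1:131638306-131675505, GRCm38, plus strand), which encodes cathepsin E, an aspartic protease of the endosomal compartment. Its values were 45.4, 63.4 and 75.7 in irradiated libraries, 648, 508 and 713 in circulating libraries and 711, 831 and 735 in endogenous libraries. Every irradiated value was far below every other value, and the circulating and endogenous values overlapped. The mean of the other groups was 11.2-fold the irradiated mean (log2 difference -3.48, SE 0.16, limma adjusted p = 1e-06). Circulating and endogenous cells differed by -0.30 (95% interval -0.70 to 0.11, limma adjusted p = 0.33).

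Dynlt1b (chr17:6430112-6436296, plus strand), which encodes a light chain of the motor protein dynein, fell nearly as far. It stood at 22.3, 19.9 and 19.9 in irradiated libraries, at 239, 190.1 and 164 in circulating libraries and at 179, 227 and 194 in endogenous libraries. Again the irradiated values were low in all 3 libraries, and the other groups overlapped. The mean of the other groups was 9.61-fold the irradiated mean (log2 difference -3.19, SE 0.15, limma adjusted p = 1e-06), and circulating and endogenous cells differed by -0.03 (95% interval -0.40 to 0.34). Dynlt1b has near-identical copies close by and overlaps the lincRNA Gm26848, so how reads were divided among these genes is uncertain.

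Cxcr4 (chr1:128588199-128592293, minus strand) encodes the CXCL12 receptor that retains blood stem cells in the marrow. Its values were 9.86, 14.5 and 8.54 in irradiated libraries, 65.8, 57.8 and 64.8 in circulating libraries and 47.0, 44.2 and 50.8 in endogenous libraries. The irradiated values were low without overlap, and the circulating values were the highest of the 3 groups. The mean of the other groups was 5.03-fold the irradiated mean (log2 difference -2.24, SE 0.19, limma adjusted p = 0.00052). The higher level in circulating than in endogenous cells (0.40, 95% interval -0.08 to 0.88) did not pass the test (limma adjusted p = 0.27).

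Epha7 and Kynu were lower genes of modest level. Epha7 (chr4:28813131-28967499, plus strand) encodes a receptor tyrosine kinase of the Eph family and overlaps the antisense gene Gm11915. It was 2.73, 4.32 and 2.98 in irradiated libraries, 8.94, 17.2 and 12.9 in circulating libraries and 21.3, 37.3 and 19.3 in endogenous libraries. Here the 3 groups followed each other without overlap, with circulating cells in the middle (log2 difference from the mean of the other groups -2.13, SE 0.31, limma adjusted p = 0.034). Kynu (chr2:43555329-43682715, plus strand) encodes kynureninase, an enzyme of tryptophan breakdown, and was 0.518, 0.712 and 0.110 in irradiated libraries, 2.42, 5.22 and 5.13 in circulating libraries and 7.39, 6.26 and 10.3 in endogenous libraries. The lowest of these values is under that of 3 counts in its library (0.143), and the order of the groups was as for Epha7. In linear values the mean of the other groups was 13.7-fold the irradiated mean, the largest ratio of the genes that fell, at the lowest level (log2 difference -2.23, SE 0.33, limma adjusted p = 0.034).

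Among the genes that rose, Fn3krp (chr11:121421401-121431288, plus strand) had the largest difference. It encodes fructosamine-3-kinase-related protein, which phosphorylates sugar adducts on glycated proteins. Its values were 42.3, 35.0 and 40.9 in irradiated libraries, 2.53, 8.43 and 8.54 in circulating libraries and 0.642, 0.374 and 0.535 in endogenous libraries. Irradiated cells were highest, circulating cells came next and endogenous cells were lowest, all under 1 but above the value of 3 counts in their libraries (0.135 to 0.154), with no overlap between any pair of groups. The irradiated mean was 11.2-fold the mean of the other groups (log2 difference 3.65, SE 0.35, limma adjusted p = 0.0015). Fn3krp was the 1 gene of the 10 that also differed between circulating and endogenous cells (2.17, 95% interval 1.28 to 3.07, limma adjusted p = 0.013), a comparison in which 8.63% of all genes were called.

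Selp (chr1:164115264-164150026, plus strand) encodes P-selectin, an adhesion molecule of platelets and endothelium that also marks aged blood stem cells. It was 119, 123 and 147 in irradiated libraries, 39.4, 60.5 and 20.99 in circulating libraries and 17.0, 24.6 and 28.4 in endogenous libraries. The irradiated values were the highest, and the circulating values spread from within the endogenous range to above it. The irradiated mean was 4.08-fold the mean of the other groups (log2 difference 2.11, SE 0.28, limma adjusted p = 0.022). The antisense gene Gm16587 and the lincRNA Gm16548 overlap Selp, and the library chemistry did not mark strand. Of 13 endothelial marker genes 8 were measured. Their summed level was 382 to 440.5 in irradiated libraries, 257 to 370 in circulating and 448 to 463 in endogenous libraries, and Cdh5, Kdr and Plvap were not among the genes tested. Of 21 megakaryocyte and platelet genes 17 were measured, with summed levels of 1604 to 1779, 1137 to 1659 and 1600 to 1907. Of the 17, 14 were above the mean of the other groups and 3 below, beside 7407 of 13771 genes above. Their median difference was 0.24 (all genes 0.03), none was called, and Gp1ba was above all 6 others. The part of these cell types in the Selp difference was not tested, and in bulk samples a different number of cells of a type cannot be told apart from a different amount of RNA per cell.

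Cep85 (chr4:134129858-134187112, minus strand) encodes a centrosomal protein that binds the mitotic kinase Nek2, and a small nucleolar RNA gene (Gm27619) lies inside it. Its values were 217, 210.4 and 232 in irradiated libraries, 80.7, 97.5 and 98.5 in circulating libraries and 59.1, 63.2 and 93.6 in endogenous libraries. Each irradiated value was above the highest other value, and the 3 varied little (2.67-fold the mean of the other groups, log2 difference 1.44, SE 0.15, limma adjusted p = 0.0035). The other genes that rose were a pair of predicted loci, named here after their values were seen. The lincRNA Gm26880 (chr4:146509094-146511764) was 159, 149 and 149.6 in irradiated libraries, 26.2, 52.8 and 62.5 in circulating libraries and 18.8, 21.1 and 32.0 in endogenous libraries (log2 difference 2.21, SE 0.26, limma adjusted p = 0.0066). It overlaps Gm26573 and Zfp981. Gm42427 (chr5:44137980-44143271), a transcript of no settled type in the annotation, was 385, 344 and 352 in irradiated libraries, 55.6, 136 and 156 in circulating libraries and 40.3, 48.2 and 87.3 in endogenous libraries (log2 difference 2.22, SE 0.31, limma adjusted p = 0.028). In both loci circulating replicates 2 and 3 exceeded circulating replicate 1, and no other value reached the irradiated ones.

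**Figure D1:**
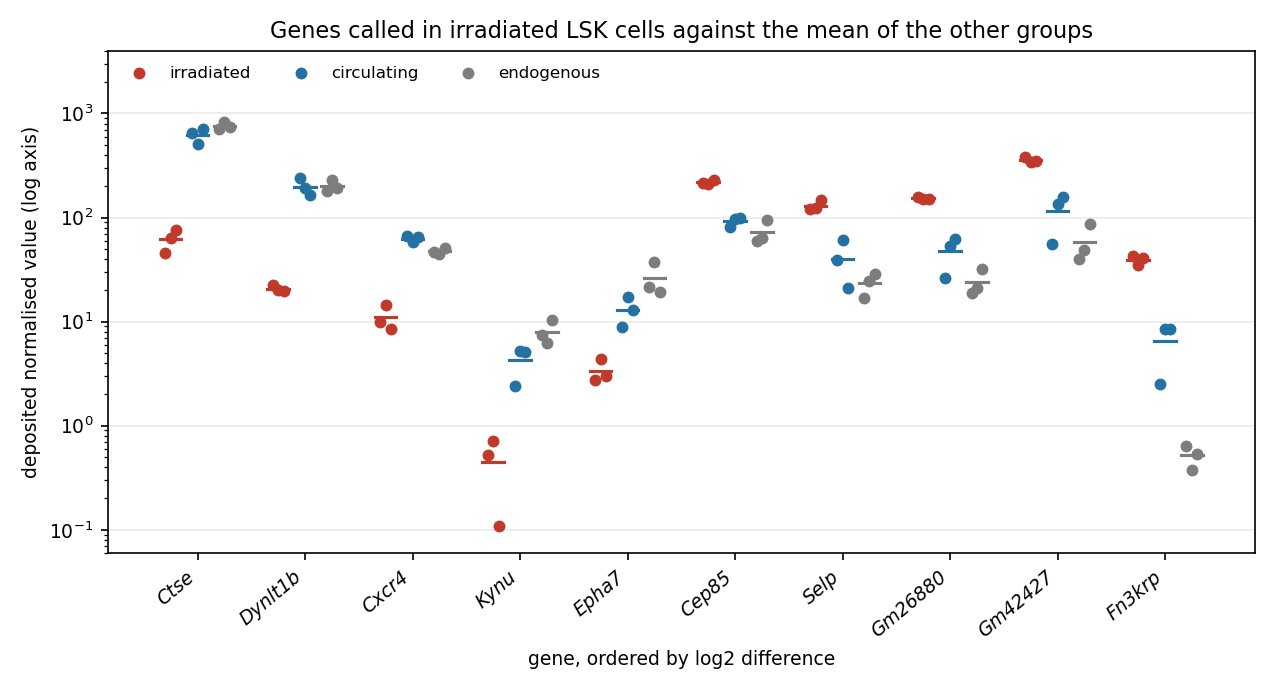
Deposited normalised value (log axis) of the 10 called genes in each library, with irradiated libraries in red, circulating in blue and endogenous in grey; bars are means of 3 libraries. The red points lie apart from all 6 others in each gene, below them in Ctse, Dynlt1b, Cxcr4, Kynu and Epha7 and above them in Cep85, Selp, Gm26880, Gm42427 and Fn3krp.

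The sequences just upstream of 4 of these genes are shown because their transcripts differed and their start is single in the reference table. Of the 10 called genes, 6 matched a RefSeq promoter entry (GRCm38.p6). Each line gives the 250 bases before the start, 5′ to 3′ on the gene's strand, with capitals marking every match to any of 5 motifs on either strand. The motifs were the GC box GGGCGG, the CCAAT box CCAAT, the TATA box TATAAA, the GATA motif AGATAA and the PU.1-type ETS motif GAGGAA. Cxcr4 is read from chr1:128592300-128592549 (minus strand), Selp from chr1:164115014-164115263 (plus strand), Fn3krp from chr11:121421123-121421372 (plus strand) and Cep85 from chr4:134187086-134187335 (minus strand).
Cxcr4: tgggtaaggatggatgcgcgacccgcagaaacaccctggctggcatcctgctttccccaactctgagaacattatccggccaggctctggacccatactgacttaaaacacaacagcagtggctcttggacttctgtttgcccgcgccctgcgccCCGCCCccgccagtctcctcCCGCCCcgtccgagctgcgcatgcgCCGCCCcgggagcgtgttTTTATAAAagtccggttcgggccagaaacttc
Selp: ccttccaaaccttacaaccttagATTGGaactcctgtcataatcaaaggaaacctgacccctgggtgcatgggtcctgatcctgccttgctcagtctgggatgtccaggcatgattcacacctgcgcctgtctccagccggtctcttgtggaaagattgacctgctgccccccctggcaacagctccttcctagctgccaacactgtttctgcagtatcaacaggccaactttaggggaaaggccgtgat
Fn3krp: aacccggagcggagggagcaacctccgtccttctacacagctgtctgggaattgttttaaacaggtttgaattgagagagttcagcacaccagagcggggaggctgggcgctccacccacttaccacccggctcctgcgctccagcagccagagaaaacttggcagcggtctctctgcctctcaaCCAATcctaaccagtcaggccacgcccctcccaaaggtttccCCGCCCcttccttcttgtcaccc
Cep85: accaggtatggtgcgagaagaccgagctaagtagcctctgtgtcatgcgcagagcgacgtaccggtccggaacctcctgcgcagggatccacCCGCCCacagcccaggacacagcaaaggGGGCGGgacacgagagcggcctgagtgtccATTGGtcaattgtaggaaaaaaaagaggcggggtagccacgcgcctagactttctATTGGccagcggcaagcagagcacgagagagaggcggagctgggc
The Cxcr4 window held 3 GC boxes and overlapping TATA box matches on both strands. The Selp window held 1 CCAAT box, the Fn3krp window 1 GC box and 1 CCAAT box, and the Cep85 window 2 of each. Of 32851 promoter windows of the same length, 32.7% held a GC box, 33.8% a CCAAT box and 12.4% a TATA box. The GATA motif, in 9.99% of all windows, and the ETS motif, in 23.3%, were not found in these 4. No motif was shared by all 4 windows. A match describes letters and not a bound site.

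Of the 10 called genes, Ctse, Dynlt1b, Cxcr4 and Fn3krp were called in all 19 alternatives run, which changed a setting, changed the scaling or left out libraries. The highest limma adjusted p over these was 2.69e-05 for Ctse, 7.55e-05 for Dynlt1b, 0.0087 for Cxcr4 and 0.031 for Fn3krp. The other 6 lost their call when single libraries were left out. Cep85 lost it without irradiated replicate 1 (limma adjusted p = 0.052) or irradiated replicate 3 (0.060). Gm26880 lost it without irradiated replicate 1 (0.094), 2 (0.065) or 3 (0.074). Selp lost it without irradiated replicates 1, 2 or 3 (0.14, 0.12 and 0.25) or endogenous replicates 1 or 2 (0.073 and 0.089). Gm42427 lost it without the same 5 libraries (0.21, 0.14, 0.25, 0.097 and 0.097). Epha7 lost it without any 1 irradiated (0.22, 0.11 and 0.32) or endogenous library (0.10, 0.097 and 0.064) and with voom weights (0.18). Kynu lost it without any 1 irradiated (0.22, 0.14 and 0.42) or endogenous library (0.11, 0.097 and 0.099) and in 3 further settings. The direction of these 10 genes was the same in every alternative.

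The contrast was next resolved into its 2 sides, which share the irradiated libraries and are therefore not independent. Against circulating cells alone, 4 genes were called (0.029%), and 3 of them were among the 10: Ctse (-3.34, limma adjusted p = 7.8e-06), Dynlt1b (-3.18, 7.8e-06) and Cxcr4 (-2.44, 0.00096). The fourth was Adgrg1, an adhesion G protein-coupled receptor of stem and progenitor cells. It was 1187, 1215 and 1241 in irradiated libraries, 646, 711 and 524 in circulating libraries and 1613, 1532 and 1282 in endogenous libraries. It was thus higher than in circulating cells (0.96, limma adjusted p = 0.030) but lay below the endogenous values (-0.27, 0.34). The call against circulating cells was lost without irradiated replicates 1, 2 or 3 (limma adjusted p = 0.16, 0.14 and 0.26), without endogenous replicates 1 or 2 (0.056 and 0.062) and with only the 6 libraries of these groups (0.089, or 0.15 with the replicate block). The difference there stayed at 0.95 to 0.98. The number of calls against circulating cells rose to 137 without circulating replicate 1 and was 7 without circulating replicate 2 and 9 without circulating replicate 3. Scaling by library total gave 8 higher and 3 lower genes, against 1 (0.00726%) and 3 (0.0218%) with the deposited scaling.

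Against endogenous cells alone, 83 genes were called (0.603%), 65 higher (0.472%) and 18 lower (0.131%), and the 10 genes were among them. The differences from endogenous cells were -3.63 for Ctse, -3.21 for Dynlt1b, -2.04 for Cxcr4, -2.59 for Epha7, -2.63 for Kynu, 4.73 for Fn3krp, 2.45 for Selp, 1.62 for Cep85, 2.66 for Gm26880 and 2.68 for Gm42427 (limma adjusted p 4.3e-06 to 0.014). The differences of the remaining 7 from circulating cells had the same sign and did not pass: 2.56 for Fn3krp (limma adjusted p = 0.069), 1.25 for Cep85 (0.055), 1.76 for Gm26880 (0.074), 1.78 for Selp (0.097), 1.76 for Gm42427 (0.13), -1.66 for Epha7 (0.15) and -1.83 for Kynu (0.13). Genes called on both sides were thus Ctse, Dynlt1b and Cxcr4, 3 of all genes tested (0.0218%). With the replicate block and only the circulating and irradiated libraries, 2 of these 3 kept their call against circulating cells. The count against endogenous cells varied from 6 to 263 when single libraries were left out, with 6 without irradiated replicate 3 or endogenous replicate 1, 7 without irradiated replicate 1 or endogenous replicate 2, 32 without irradiated replicate 2 and 27 without endogenous replicate 3. It was 263, 137 and 235 without circulating replicates 1, 2 and 3. Scaling by library total moved the split to 51 higher and 27 lower genes. The corresponding count between circulating and endogenous cells was 1189, with 734 higher (5.33%) and 455 lower (3.3%) in circulating cells, or 340 and 821 with scaling by library total.

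**Figure D2:**
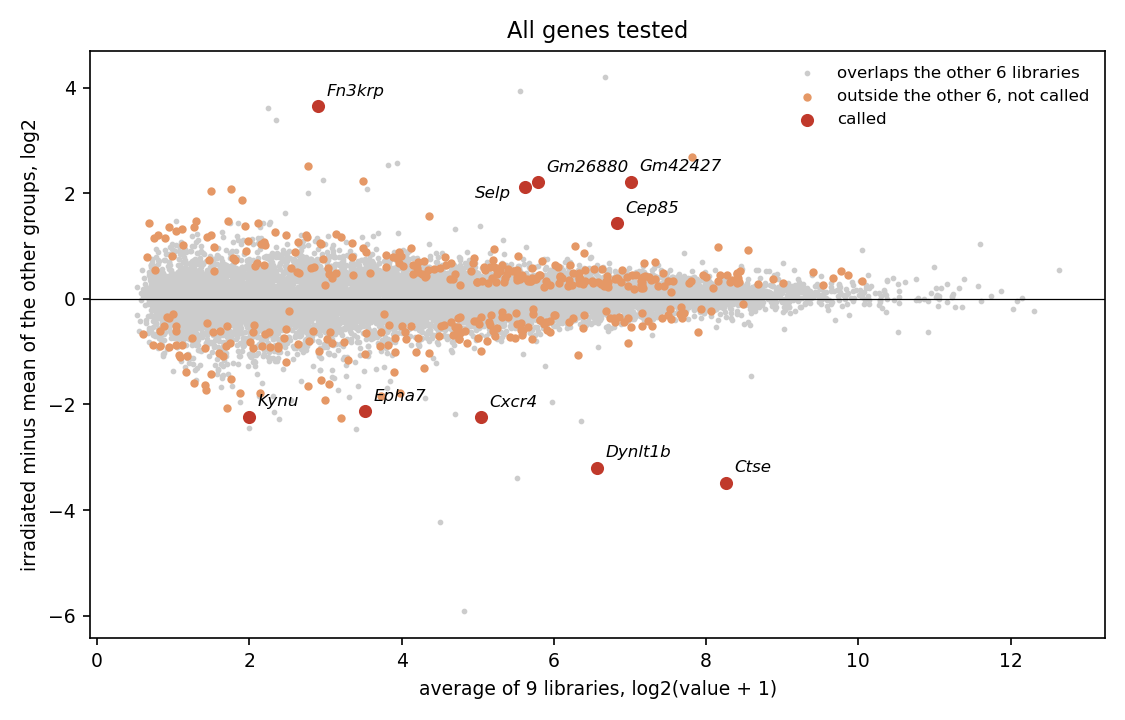
Log2 difference of irradiated cells from the mean of the other groups against the average level of each of the 13771 genes tested, with called genes in red and genes whose 3 irradiated values lay outside the other 6 in orange. Ctse and Dynlt1b lie at differences of -3.48 and -3.19 far below other genes of their level, and 14 of the 25 uncalled genes past a difference of 2 are immunoglobulin genes.

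Differences past 2 log2 units were found in 34 genes, of which 9 were called and 25 were not. Of the 25, 14 were immunoglobulin genes, whose levels varied from library to library within groups. Of the 25, 7 had irradiated values outside the 6 others. Just outside the threshold lay Dynlt1c (limma adjusted p = 0.060), Lig4, Lrmda and Gm43305 (0.062 each), named here after their values were seen. Lig4, which encodes the DNA ligase of non-homologous end joining, was 6.45, 6.04 and 6.29 in irradiated libraries, 1.33, 0.0376 and 1.39 in circulating libraries and 0.564, 0.639 and 1.02 in endogenous libraries. Its irradiated values were close to each other and above all others (log2 difference 2.04, SE 0.33), while the circulating value of 0.0376 is that of a count of 0. Lrmda was 22.02, 21.5 and 18.9 in irradiated libraries, 2.51, 11.4 and 2.75 in circulating libraries and 1.69, 2.23 and 1.18 in endogenous libraries. Gm43305 was 809, 779 and 752 in irradiated libraries, with 80.0 to 250.5 in circulating and 54.1 to 187 in endogenous libraries. All 4 were called with sample weights (0.0031 to 0.029), under which the count rose from 10 to 25 genes.

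The circulating libraries were placed on a scale from the endogenous mean (0%) to the irradiated mean (100%) of each called gene, as a description of how near they came to irradiated cells. The circulating mean lay between the other means in 9 of the 10 genes. The same share over all genes was not taken. These genes were chosen for irradiated values apart from the others. In such genes any circulating mean on the irradiated side of the endogenous mean tends to lie between, so the count shows no intermediate state. Cxcr4 was the exception: its 3 circulating libraries lay at -50.7%, -28.9% and -48.0%, on the far side of the endogenous cells. Epha7 was nearest, with 75.3%, 38.9% and 57.8%, followed by Kynu with 73.8%, 36.6% and 37.8%. Fn3krp lay at 5.18%, 20.3% and 20.6%, and Gm26880 at 1.75%, 22.4% and 29.99%. In Dynlt1b the circulating libraries fell on both sides of the endogenous mean, at -21.7%, 5.58% and 20.2%. Circulating replicate 1 was the nearest to irradiated cells in Epha7 and Kynu and the farthest in Fn3krp, Gm26880, Gm42427, Cep85, Dynlt1b and Cxcr4.

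**Figure D3:**
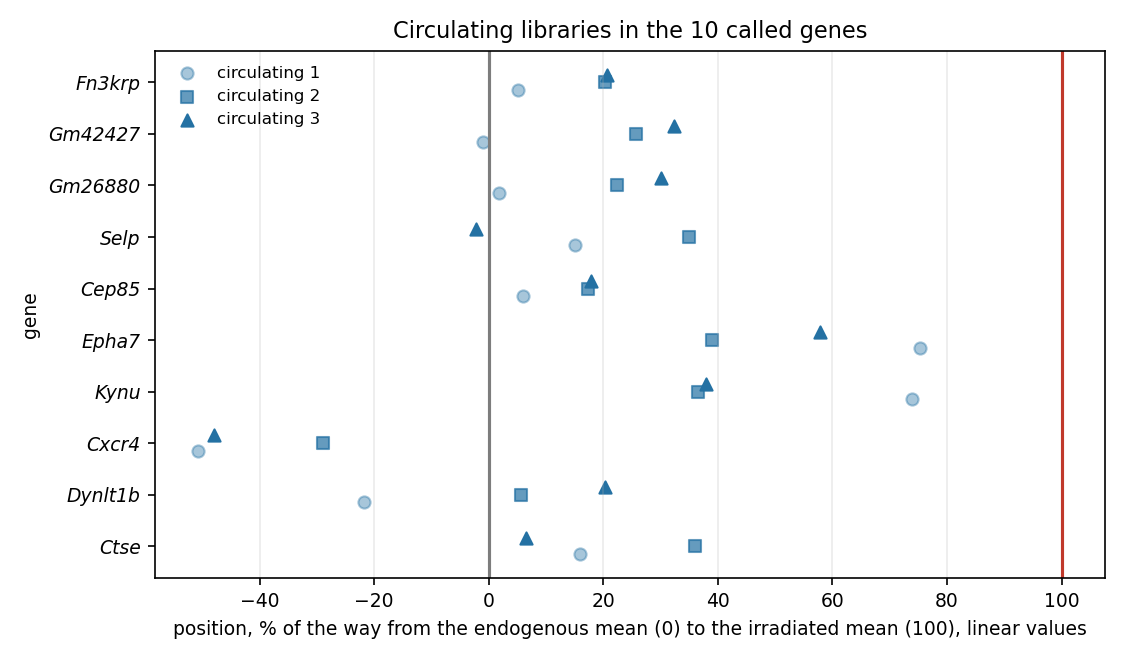
Position of each circulating library between the endogenous mean (0%, grey line) and the irradiated mean (100%, red line) in linear values, for the 10 called genes. No circulating library reached the irradiated mean; the nearest was replicate 1 in Epha7 at 75.3% and Cxcr4 lay beyond the endogenous mean at -50.7% to -28.9%.

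Positions of the called genes were then described. Of the 10, 3 lay on chromosome 1 (Ctse, Cxcr4 and Selp), 3 on chromosome 4 and 1 each on chromosomes 2, 5, 11 and 17. Chromosome 1 held 934 of the 13771 genes tested and chromosome 4 held 819. Irradiated values lay outside the other 6 in 3.32% and 2.69% of these, with 5.11% on chromosome 19 and 2.91% of all genes. The strain label of the endogenous cells names CD45.1, a form of the protein encoded by Ptprc on chromosome 1, so distance from the start of Ptprc was used. Cxcr4 lay at -9.47 Mb, Ctse at -6.42 Mb and Selp at 26.1 Mb. Irradiated values lay outside the other 6 in 9 of 115 genes within 10 Mb of Ptprc (7.83%), in 17 of 272 within 30 Mb (6.25%) and in 14 of 662 genes of chromosome 1 farther away (2.11%), beside 2.91% of all genes. All 3 called genes of the chromosome were within 30 Mb. By windows of 10 Mb, the highest share was 3 of 15 genes (20%) at 100 to 110 Mb, just beyond 30 Mb from Ptprc. Ptprc itself was not called (-0.26, limma adjusted p = 0.67). Circulating and irradiated cells carry the same strain label. The partner that each sort came from is not stated, so this label cannot be assigned to the cells rather than to the mouse sorted. Whether position or strain bears on these genes was not tested.

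Other genes of chromosome 1, named after their values were seen, lay outside the 6 others without being called. Ppfia4, Epb41l5 and Acmsd lay within 30 Mb of Ptprc, and Serpinb8 just beyond it at -30.5 Mb. Ppfia4, a liprin scaffold protein, was 11.4, 7.28 and 5.85 in irradiated libraries, 0.113, 0.0376 and 1.73 in circulating libraries and 2.28, 1.35 and 2.53 in endogenous libraries (log2 difference 2.08, limma adjusted p = 0.14). Serpinb8, a serine protease inhibitor, was 4.07, 3.24 and 0.596 in irradiated libraries, with 7.51 to 11.2 in circulating and 13.03 to 34.3 in endogenous libraries (-2.26, 0.14). Epb41l5, a cytoskeletal adaptor, was 1.79, 2.79 and 4.78, with 5.70 to 9.88 and 14.9 to 16.4 in the same order (-1.61, 0.15). Acmsd, an enzyme of tryptophan breakdown as is Kynu, was above the others, at 3.39, 1.52 and 1.59, with no other library above 0.627 (1.21, 0.35). On the other side and also beyond 30 Mb, the interferon-inducible genes Ifi206 and Ifi208 had irradiated values below the 6 others. Ifi206 was 9.01, 9.13 and 11.0 in irradiated libraries, with 14.0 to 29.7 in circulating and 33.3 to 35.5 in endogenous libraries (-1.31, 0.15), and Ifi208 was 3.03, 1.51 and 2.23, with 8.58 to 10.3 and 5.94 to 14.7 (-1.65, 0.19). Neither was on the list of type I interferon response genes, of which 36 were tested. In that list 1 gene lay above the 6 others and 0 below (2.78% outside, all genes 2.91%), with a median difference of -0.06. Chromosome 1 thus held genes with irradiated values above and genes with irradiated values below the others.

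**Figure D4:**
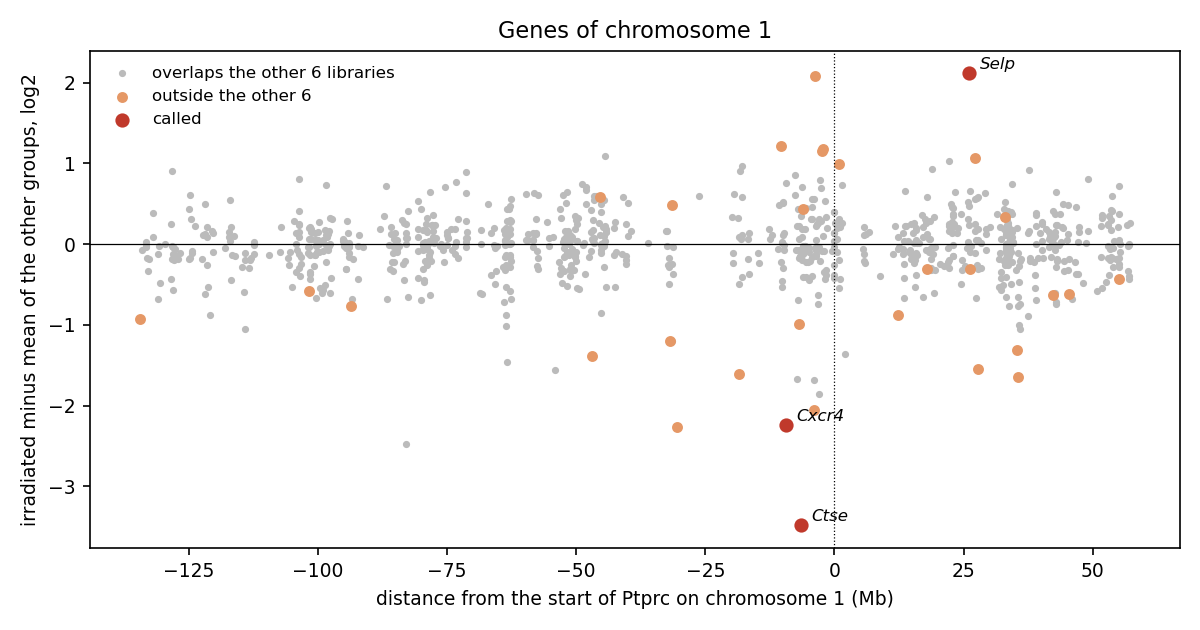
Log2 difference of irradiated cells from the mean of the other groups for the 934 tested genes of chromosome 1, by distance from the start of Ptprc (dotted line). The 3 called genes (red) lie between -9.47 Mb and 26.1 Mb, and 31 genes (orange and red) have irradiated values outside the other 6.

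Of the 10 called genes, 6 had a gene within 500 kb whose irradiated values also lay outside the 6 others. Among all genes outside the range, 150 of 398 with a position had such a neighbour (37.7%), and among all tested genes 4363 of 13721 (31.8%). Beside Dynlt1b lay its copy Dynlt1c, at 57.3, 46.4 and 41.3 in irradiated libraries, 124, 91.0 and 80.1 in circulating libraries and 108, 112 and 95.6 in endogenous libraries (-1.06, limma adjusted p = 0.060). Tmem181a, between them and Serac1, was 33.97, 36.6 and 36.6, against 48.9 to 71.5 and 62.0 to 68.0 (-0.77, 0.19). Fn3krp had Rab40b, a small GTPase, 33.2 kb away, at 2.45, 2.39 and 3.38 against 0.199 to 0.595 in circulating and 0.639 to 0.754 in endogenous libraries (1.28, 0.19). Gm42428 lay 1.06 kb from Gm42427 and was 31.2, 30.2 and 30.2 in irradiated libraries, with 2.22 to 13.7 in the others (2.23, 0.25). Both members of these last pairs were higher in irradiated cells. Cd52, a surface glycoprotein of lymphocytes 34.8 kb from Cep85, was lower (-0.83, 0.51) where Cep85 was higher. Near Ctse, Nucks1 was higher (0.44, 0.47) and Ikbke lower (-0.99, 0.50), and Nme7 near Selp was lower (-0.32, 0.68).

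Gene lists chosen for an irradiated or parabiotic blood progenitor were described next. Of 36 lists, 34 held no called gene, beside 0.0726% of all genes. The exceptions were the adhesion, homing and retention list, with Selp higher and Cxcr4 lower among 35 genes, and the HSC ageing list, with Selp among 24. The median of all genes was 0.03 in the contrast, 0.02 against circulating and -0.01 against endogenous cells, so list medians are read beside these. Scaling by library total moved the median of all genes against endogenous cells to -0.13.

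Of 28 tested p53 targets, none was called by limma, and the median difference was 0.15. An unadjusted limma p under 0.05 was found in 4 of the 28, beside 1045 of 13771 genes (7.59%). The 3 most abundant members were Trp53, which encodes p53 itself, at 274, 270.2 and 253 (-0.03), Sesn1, a stress-induced sestrin, at 259, 272 and 245 (-0.01), and Xpc, a DNA damage sensor, at 204, 185 and 171 (-0.14). All 3 overlapped the other groups. Cdkn1a, the p53-induced cell cycle inhibitor p21, was 11.3, 14.0 and 13.3 in irradiated libraries, 10.7 to 15.9 in circulating and 4.53 to 12.8 in endogenous libraries (0.24, 95% interval -0.48 to 0.95, limma adjusted p = 0.90). Mdm2, the p53 ubiquitin ligase, was 83.1, 89.3 and 93.5, with 56.8 to 106 and 75.7 to 79.1 (0.15, 0.88). Phlda3, the 1 member outside the other 6 (3.57%, all genes 2.91%), was 2.81, 6.66 and 2.48, with 0.429 to 1.90 and 1.22 to 1.57 (1.17, 0.52). Phlda3 lies on chromosome 1 at -2.30 Mb from the start of Ptprc, in the stretch within 10 Mb described above.

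Of 38 DNA damage checkpoint and repair genes, none was called, and the median was 0.02. An unadjusted limma p under 0.05 was found in 5 of the 38, beside the same 1045 of 13771 genes. Among the most abundant, the mismatch repair gene Msh6 (0.08) and the base excision repair gene Apex1 (0.16) overlapped the other groups. Outside the 6 others lay 4 members, or 10.5% against 2.91% of all genes, and they did not go one way. Lig4 was described above. H2afx, the histone variant phosphorylated at DNA breaks, was 212, 215 and 234 in irradiated libraries, with 121 to 199 in circulating and 101 to 135 in endogenous libraries (0.69, limma adjusted p = 0.33). Mdc1, which binds that histone, was lower at 11.3, 11.6 and 13.8, with 17.5 to 26.9 and 17.9 to 21.6 (-0.74, 0.52), and Rad52, a recombination protein, was 29.1, 27.9 and 24.6, with 33.9 to 40.4 and 30.04 to 38.5 (-0.35, 0.68).

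In several lists, though not in all, the irradiated group mean mostly lay between the means of the other groups. The irradiated mean lay between the others in 18 of 21 granulocyte-monocyte progenitor genes, 23 of 26 HSC-associated genes, 24 of 26 G2/M and mitosis genes and 31 of 35 nuclear respiratory chain genes, beside 48.5% of all genes. It did so in 8 of 18 multipotent and lymphoid-primed progenitor genes, 8 of 17 megakaryocyte and platelet genes and 9 of 20 quiescence genes and cell cycle inhibitors. Single libraries did not all follow the means. Summed myeloid genes were 15817 in circulating replicate 1, inside the irradiated range of 10631 to 20223. Respiratory chain genes were 9605 there, inside 9168 to 9721. G2/M genes were 5037 in circulating replicate 2, below the irradiated 5118 to 6170. Sums of HSC-associated genes did not overlap between groups. Myeloid genes had a median of -0.68 against circulating and 1.27 against endogenous cells, and 6 of 21 were called as higher than in endogenous cells (all genes 0.472%). None of the 21 was called without irradiated replicate 1 or 3 or without endogenous replicate 1 or 2, 4 were without irradiated replicate 2, 1 without endogenous replicate 3, and 13, 6 and 11 without circulating replicates 1, 2 and 3. The count was 3 with voom weights, 11 with sample weights, 13 with only the 6 libraries of these groups and 13 without circulating replicates 2 and 3 together. Elane, neutrophil elastase, was 1836, 1106 and 2118 in irradiated libraries, 1538 to 5099.6 in circulating and 195 to 340 in endogenous libraries (2.76 against endogenous, limma adjusted p = 0.026). Mpo, myeloperoxidase, was 8473, 5365 and 11941, with 9410.1 to 28137.5 and 1648 to 2334 (2.11, 0.069), and Calr was 840.1, 767 and 1076, with 578 to 1374 and 473 to 536 (0.84, 0.15). HSC-associated genes had the opposite order, with medians of 0.50 against circulating and -0.35 against endogenous cells. Their most abundant members were Angpt1 at 483, 569 and 558, Ifitm3 at 274, 302 and 269 and Meis1 at 256, 244 and 271, each with an irradiated mean between the other means and none called.

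G2/M genes had medians of -0.09 against circulating and 0.79 against endogenous cells, and 6 of 26 were called as higher than in endogenous cells (all genes 0.472%). None of the 26 was called without irradiated replicate 1 or 3 or without endogenous replicate 1 or 2, 4 were without irradiated replicate 2, 2 without endogenous replicate 3, and 13, 15 and 15 without circulating replicates 1, 2 and 3. The count was 10 with the replicate block, 12 with a filter of 5, 23 with sample weights, 20 with only the 6 libraries of these groups and 20 without circulating replicates 2 and 3 together. Top2a, a topoisomerase of dividing cells, was 728, 650.3 and 688 in irradiated libraries, with 550.1 to 801 in circulating and 466 to 544 in endogenous libraries. Ccnb1, cyclin B1, was 593, 440.1 and 564, with 333 to 868 and 223 to 273, and Mki67 was 366, 344 and 353, with 280.0 to 396 and 208 to 242. In these 3 genes all irradiated values exceeded all endogenous values and overlapped the circulating ones, and none passed the test (limma adjusted p against endogenous 0.17, 0.11 and 0.068). In none of the 10 called genes did the irradiated mean lie between the others. The contrast that picked these genes favours irradiated means apart from both groups, so this is no separate result.

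**Figure D5:**
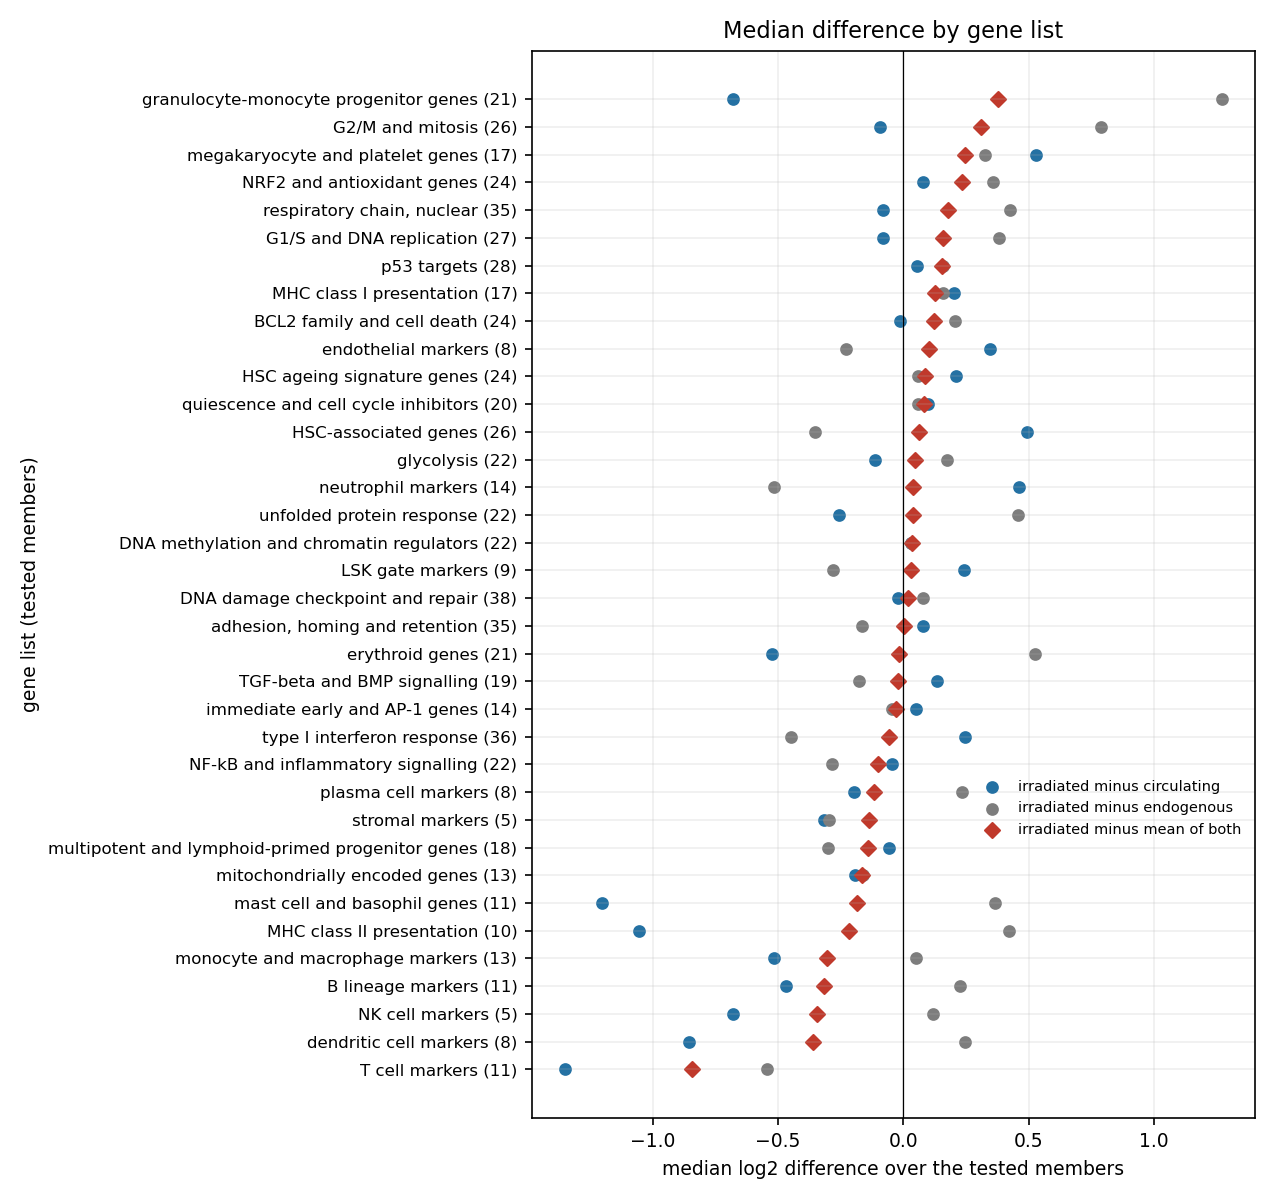
Median log2 difference over the tested members of each of the 36 gene lists (number in brackets): irradiated minus circulating in blue, irradiated minus endogenous in grey, irradiated minus the mean of both in red. Myeloid progenitor genes lie at -0.68 and 1.27 and HSC-associated genes at 0.50 and -0.35 on opposite sides of 0, while p53 targets (0.06 and 0.16) and repair genes (-0.02 and 0.08) lie near it.

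Among the remaining lists, single members lay outside the 6 others without being called, and in many lists no member did. The share outside was 11.8% of 17 MHC class I genes and 5.88% of 17 megakaryocyte and platelet genes. It was 5.26% of 19 TGF-beta and BMP signalling genes and 8.33% of 24 BCL2 family and cell death genes, beside 2.91% of all genes. Among the MHC class I genes these were the non-classical H2-Q7 and H2-Q6. H2-Q7 was 563, 657 and 524 in irradiated libraries, with 238 to 369 in circulating and 243 to 374 in endogenous libraries (0.93, limma adjusted p = 0.14), and H2-Q6 was 464, 491 and 387, with 143 to 279 and 211 to 259 (0.97, 0.15). These genes are near-identical copies whose reads can be divided in more than 1 way. The classical genes H2-K1 (0.20), H2-D1 (-0.02) and B2m (0.06) overlapped the other groups, and the list of 17 had a median of 0.13. Itgb3, the platelet integrin subunit, was 17.7, 11.3 and 15.3, with 1.38 to 9.09 and 5.51 to 11.2 (1.22, 0.56), and Aldh1a1, an aldehyde dehydrogenase, was 40.3, 47.4 and 37.0, with 4.18 to 27.8 and 9.10 to 27.5 (1.57, 0.52). Both stand with Selp in the HSC ageing list. Of its 24 tested genes, 4 were outside (16.7%, all genes 2.91%), Ptprk being lower (-0.88, 0.66). The median of this list was 0.09. Gp1ba, a platelet glycoprotein, was 14.9, 10.2 and 9.90, with 2.74 to 4.36 and 5.47 to 7.87 (1.06, 0.46), and Tgfb1 was 47.2, 58.8 and 63.3, with 18.3 to 37.2 and 20.6 to 40.9 (0.94, 0.51). Bcl2, which protects from cell death, was 211, 224 and 213, with 107 to 197 and 125 to 191 (0.49, 0.64). Bcl2 lies on chromosome 1 at -31.5 Mb from the start of Ptprc, in the window at 100 to 110 Mb described above.

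Markers of mature cells that a sort can let through are given for the irradiated libraries beside the others. Of 13 T cell markers 11 were tested, with a median of -0.84, and 9 were below the mean of the other groups. Their summed level was 62.8 to 99.0 in irradiated libraries, 80.1 to 338 in circulating and 136 to 144 in endogenous libraries. Most of it came from Lck, and Cd3e and Zap70 were not among the genes tested. B lineage markers summed to 174 to 225, 234 to 480 and 172 to 234 in the same order, and Pax5 was not among the genes tested. Neutrophil markers summed to 955 to 2266, 1360 to 2251 and 1333 to 2714. NK cell markers (5 of 10 measured) summed to 542 to 657, 526 to 919 and 231 to 285. Plasma cell markers were uneven, at 1526, 275 and 397 in irradiated libraries. They summed to 1071 to 1800 in circulating and 362 to 778 in endogenous libraries. Monocyte and macrophage markers summed to 1185 to 1672, 1248 to 2961 and 899 to 1328. Dendritic cell markers summed to 663 to 871, 789 to 1247 and 965 to 1321. Of the 11 T cell markers tested, none lay outside the 6 others. Cd247, a T cell receptor subunit, was not on that list and was chosen after its values were seen. It was below the 6 others, at 3.09, 3.41 and 1.99, with 10.4 to 19.0 in circulating and 4.75 to 8.91 in endogenous libraries (-1.54, limma adjusted p = 0.20). Cd247 lies on chromosome 1 at 27.7 Mb from the start of Ptprc. T cells also carry Cxcr4 and Cd52, and the part of mature cells in those differences was not tested.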

How the data were processed

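RNA of sorted LSK cells was sequenced in 9 libraries, from cDNA amplified with SMART-Seq v4 and prepared with Nextera XT, per the labels' protocols. The submitters' processing notes name CASAVA, RSEM 1.3.1, limma and mm10, with no role or order. The deposited values are a normalised signal: in every column each value is an estimated count plus an offset, multiplied by a constant of that column. The scaling method is not given in the sources used here. Depth was recovered from these values, and a count of 0 corresponds to 0.0182 to 0.0376. PCR reads carry no molecular identifiers, so depth describes counting error only.

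Genes at 1 or more in at least 3 libraries were tested, 13771 of 14461. The test was limma-trend (limma 3.58.1, R 4.3.3) with robust moderation on log2(value + 1), all 9 libraries in one fit, no covariate, and Benjamini-Hochberg adjustment over all genes tested. Symbols and positions came from GENCODE on GRCm38 (14405 genes matched, 56 did not) and promoter windows from RefSeq. Genes were named where called, averaging 2 or more in log2 and outside the 6 others in irradiated values, predicted loci excepted, the called or 3 most abundant members of each list described, and Ly6a, Kit, Ptprc, Cd34, Flt3, Cxcr4, Selp, Ctse, Cdkn1a and Mdm2. One gene that this rule names is not reported here. Others were chosen after their values were seen, as was Kynu. The comparison, the genes and the lists were chosen with earlier results of these data known. Alternatives changed the pseudocount, the filter, the weights, the scaling and the block, and left out libraries.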

Additional observations from a re-analysis of the deposited data

How the results depend on the processing

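Of the 10 called genes, 4 were called in every alternative and the others lost their call in 2 to 9 of 19. Leaving out single libraries gave 4 to 18 called genes in the contrast, all of them outside the range of the 6 others, 3 to 137 against circulating, 6 to 263 against endogenous, and 257 to 2224 between circulating and endogenous. The lowest counts in the contrast came without irradiated replicate 1 or 3 and the highest without circulating replicate 3. Sample weights gave 25 calls in the contrast (23 of them outside the range), 897 against endogenous and 494 between circulating and endogenous. Circulating replicates 2 and 3 stood apart, and leaving out both, an alternative chosen after seeing the data, gave 84 calls in the contrast (71 outside the range), 72 against circulating, 770 against endogenous and 164 between circulating and endogenous. That fit assumes that the 1 remaining circulating library varied like the others. Calls against circulating were 13 with a filter of 5, 8 with voom weights, 11 with scaling by library total and 19 with the title code as a random block. Calls against endogenous were 138 with a filter of 5 and 757 with only the 6 libraries of these groups. Asking for a call against each other group singly left 3 genes.

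The replicate block moved the calls from 10 to 12 in the contrast, from 4 to 9 against circulating (2 with only those 6 libraries), from 83 to 105 against endogenous and from 1189 to 1147 between circulating and endogenous. Deviations of same-numbered circulating and irradiated libraries correlated at 0.050, 0.031 and 0.18, and those of unlike number at -0.17 to 0.11. The same-numbered values were not all over 0.1, an arbitrary cut, so the main fit did not pair these libraries. The correlation fitted for the title code as a random block was 0.116, which is over that cut. These values do not settle whether the libraries were paired. Same-numbered circulating and irradiated libraries also share a title code whose meaning is not given. Of these 3 circulating libraries, replicate 1 correlated better with irradiated replicate 2 (0.11).

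Genes near no difference changed sign in some alternatives. Kit was -0.0017 with scaling by library total. When single libraries were left out, Kit ranged from -0.029 to 0.085, Cd34 from -0.14 to 0.092, Sesn1 from -0.12 to 0.14, Trp53 from -0.054 to 0.0043, Ifitm3 from -0.016 to 0.11, B2m from -0.0040 to 0.16 and H2-D1 from -0.049 to 0.035. With circulating replicates 2 and 3 left out, Angpt1 was -0.077, Ifitm3 -0.083 and H2-D1 0.030.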
